A study of Mus musculus with 17 samples.

Results

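In Arid1a cKO pachytene spermatocytes, 1243 of the 6179 autosomal H3.3 regions were centred just upstream of a protein-coding transcript start. They made up 20.1% of the autosomal regions (95% Wilson interval 19.1 to 21.1%) of a list of 6552. A region was kept when its centre lay within 1 kb of a protein-coding start and upstream of the nearest one. Regions within 1 kb of the starts of coding genes on opposite strands (710 regions, called divergent here) were left out, as were 827 regions with no coding start within 1 kb. The remaining 3399 regions were centred at or downstream of a single coding start and serve as the comparison. The position used by this rule is therefore not a finding. Intervals given with shares cover counting error only and treat regions or genes as independent.

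The regions came from CUT&RUN with an H3.3 antibody, a method in which permeabilised cells are incubated with antibody, a tethered nuclease cuts the bound chromatin, and the freed fragments are sequenced. Arid1a cKO males were Arid1a fl/fl and carried the Stra8-Cre transgene, which is active from spermatogonia onwards. The Arid1a WT males were Arid1a fl/fl or Arid1a fl/+ without Cre, so that floxed alleles were present in both groups. Pachytene spermatocytes were enriched by sedimentation from pooled testes of adult males on a CD1 background. Excision by Stra8-Cre was incomplete according to the study, so the cKO cells include some that kept ARID1A. The cKO list combines 3 libraries and the WT list 2, without values per library, so the regions have no replicate error and the genotypes cannot be tested against each other. Peak positions hold no expression level, so the labelled cell type was not checked against marker transcripts.

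H3.3 is a histone H3 variant that is put into chromatin outside of DNA replication, by HIRA at active genes and by DAXX with ATRX at repeats and telomeres. At many active promoters the DNA around the start is kept open and is flanked by nucleosomes rich in H3.3. ARID1A is a subunit of the BAF remodeler, which slides and evicts nucleosomes at promoters and enhancers. Most mouse promoters of widely expressed genes lie in CpG islands, stretches of DNA that escaped the loss of CpG by methylation, and many of them hold several transcript starts. In male meiosis H3.3 is best known for its accumulation on the silenced X and Y chromosomes, which were outside this set.

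The DNA at the upstream regions of highest fold whose nearest start was the outermost coding start of the gene illustrates the set. Larp1b encodes a La-related RNA-binding protein and Rps6ka5 encodes the kinase MSK1, which phosphorylates histone H3. Both regions covered the start. Pik3r3 encodes a regulatory subunit of phosphoinositide 3-kinase and 9930021J03Rik is a gene of unassigned function. Both regions ended before the start. Each sequence is the 5′ to 3′ reference (GRCm38.p6) of up to 200 bases around the region's centre, cut so that it ends before the start, and capitals mark matches on either strand to any of 10 promoter motifs.
Larp1b, chr3:40949492-40949691, plus strand: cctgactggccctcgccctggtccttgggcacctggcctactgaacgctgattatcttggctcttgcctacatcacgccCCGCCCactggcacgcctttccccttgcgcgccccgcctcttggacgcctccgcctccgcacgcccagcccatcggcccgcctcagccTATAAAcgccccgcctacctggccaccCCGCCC
Rps6ka5, chr12:100725121-100725232, minus strand: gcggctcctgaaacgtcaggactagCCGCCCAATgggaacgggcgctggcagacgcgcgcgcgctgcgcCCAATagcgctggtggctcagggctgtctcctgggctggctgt
Pik3r3, chr4:116220976-116221175, plus strand: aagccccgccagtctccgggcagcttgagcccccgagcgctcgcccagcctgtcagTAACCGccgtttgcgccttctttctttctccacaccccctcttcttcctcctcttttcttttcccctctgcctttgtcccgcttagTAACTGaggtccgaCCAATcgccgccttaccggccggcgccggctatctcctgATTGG
9930021J03Rik, chr19:29806364-29806563, minus strand: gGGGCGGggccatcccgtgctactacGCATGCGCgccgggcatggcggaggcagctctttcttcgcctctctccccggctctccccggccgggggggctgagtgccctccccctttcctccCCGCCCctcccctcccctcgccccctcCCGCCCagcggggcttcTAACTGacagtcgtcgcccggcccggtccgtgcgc

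The Larp1b stretch ran from -336 to -137 bp of the start and held 17 CpG and 2 GC boxes beside a TATA box. The Rps6ka5 stretch ran from -112 to -1 bp and held 12 CpG, 2 CCAAT boxes and 1 GC box, the first CCAAT overlapping the GC box. The Pik3r3 stretch, from -642 to -443 bp, held 16 CpG. The 9930021J03Rik stretch, from -574 to -375 bp, held 21 CpG at a GC content of 75.5%. These are matches of letters and not measured binding.

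The regions crowded towards the start. Their centres lay at a median of -88 bp, with 249 of 1243 (20.0%) within 25 bp, 668 (53.7%) within 100 bp and 58 (4.67%) farther than 500 bp. The nearest were those of Erlin2, a membrane protein of the endoplasmic reticulum, Slc35b3, a transporter of the sulphate donor PAPS, and Smarcd3, a BAF subunit, each centred 0.5 bp upstream. Arhgap35, Cops7a and Ggact, with centres at 0, fell just outside on the downstream side. The farthest were L3mbtl3 at -981.5 bp, Scrt1 at -939.0 bp and Trim8 at -938.5 bp. Sall3 at -1003 bp, C030006K11Rik at -1014.5 bp and Nol4l at -1020 bp were just beyond the limit. The fold enrichments of these 3 outer regions were 3.29, 3.96 and 3.04, and those of the 3 farthest upstream regions were 2.86, 3.67 and 3.69.

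**Figure D1:**
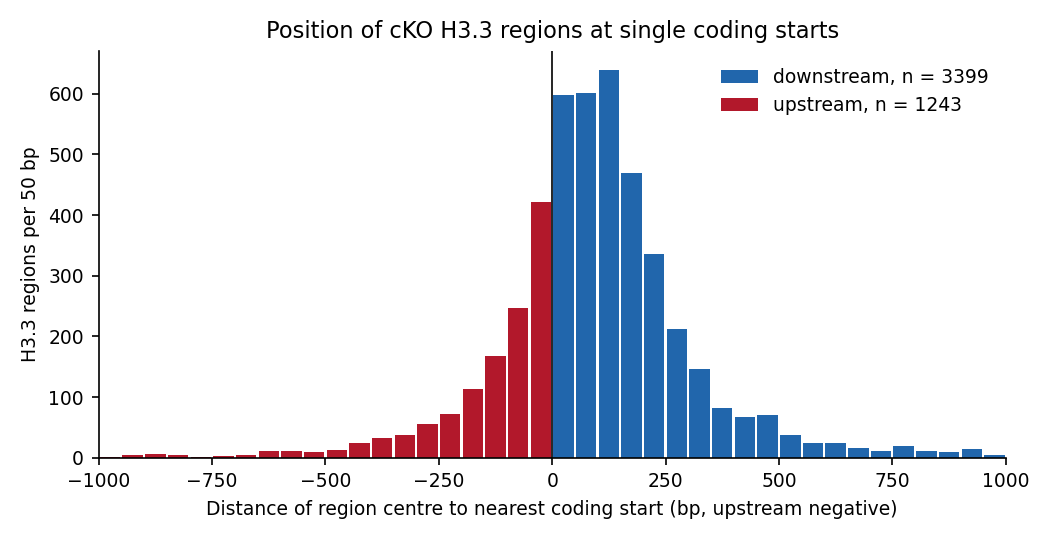
Number of cKO H3.3 regions per 50 bp by the distance of the region's centre from the nearest protein-coding start, for regions centred upstream (red, n = 1243) and at or downstream of it (blue, n = 3399). The upstream bin next to the start held 421 regions and counts fell away from it, whereas the downstream bins stayed near 600 up to 150 bp, with 639 regions in the highest.

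Although centred upstream, most regions reached over the start. The nearest start lay inside 973 of 1243 regions, a share of 78.3% (75.9 to 80.5%), against 72.7% (71.1 to 74.1%) of the downstream regions and 87.3% (84.7 to 89.6%) of the divergent ones. Laid over one another, the upstream regions covered the position 100 bp before the start most often, in 88.2% of regions, and the downstream set covered the position 150 bp after it most often, in 87.6%. Cover of the start fell with distance, from 421 of 421 regions centred within 50 bp to 58 of 129 (45.0%) between 200 and 300 bp and 5 of 58 (8.62%) beyond 500 bp. The 270 regions that ended before the start left a median gap of 110.0 bp. Among them was a region of Daxx, the H3.3 chaperone of repeats, at -878.5 bp with a fold of 3.59. Daxx also had a region 12 bp downstream of a coding start, with a higher fold of 5.81.

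The upstream regions had a median width of 468 bp, with 9 under 100 bp and 130 over 1000 bp. Median width was 428 bp in the downstream set, 494 bp in the divergent set and 294 bp away from coding starts. Among the widest regions were those of Ppp2r3d (3454 bp), a phosphatase subunit gene, Klf10 (2707 bp), a GC-box-binding repressor, Nsd1 (2415 bp), a histone H3K36 methyltransferase, and Pfn1 (2143 bp), the actin-binding profilin. These 4 regions covered their start. The narrowest, 14 bp at the ubiquitin-conjugating enzyme gene Ube2j1, had a fold of 2.96.

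Fold enrichment is the authors' ratio of H3.3 signal over IgG for a peak, and it had a median of 3.95 and a range of 2.85 to 14.7 in the upstream set. The medians were 4.07 in the downstream set, 4.35 in the divergent set, 3.3 away from coding starts and 3.95 over all autosomal regions. A fold of at least 5 was reached by 257 upstream regions (20.7%, 18.5 to 23.0%), against 21.7% (20.7 to 22.7%) of all autosomal regions. A -log10 q of at least 5 was reached by 28.2% (25.7 to 30.7%) against 28.0% of all autosomal regions. These intervals of the upstream regions include the shares of the list as a whole. The same fold of 2.91 was listed for 94 of them (7.56%) and for 511 of all 6179 autosomal regions (8.27%). Regions with this value, near the weak end, cannot be ordered among themselves by fold.

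The highest fold, 14.7, was at Cwc22, which encodes a splicing factor that also loads the exon junction complex. The region was 550 bp wide and centred 44.5 bp before the start. Hmgcs1, an enzyme of cholesterol synthesis, followed with a fold of 9.88 and Ogdh, a subunit of the mitochondrial 2-oxoglutarate dehydrogenase, with 9.79. Ypel5 had a fold of 9.78, the microtubule-binding protein gene Map4 of 9.57 and the minor spliceosome gene Rnpc3 of 9.55. Larp1b (9.21), Rps6ka5 (9.14), Pik3r3 (9.13) and 9930021J03Rik (9.06) completed the 10 highest. Cwc22 stood alone, and the others lay within 1 unit of fold.

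**Figure D2:**
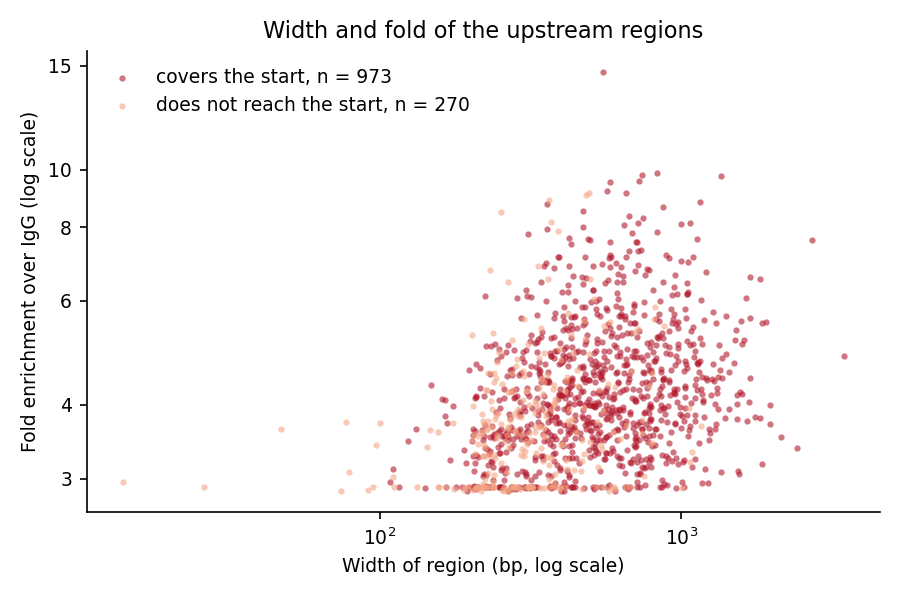
Width in bp and fold enrichment over IgG of the 1243 upstream regions, both on log scales, for regions that cover the nearest start (dark, n = 973) and those that end before it (light, n = 270). Cwc22 is the single point at 14.7, and the row of points at 2.91 holds the 94 regions with that same value.

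Regions that covered the start were wider and stronger than those that ended before it. Median width was 528 bp against 306.5 bp and median fold 4.10 against 3.58. A wider region is more likely to reach a start, so that these differences are partly set by the split itself.

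Being upstream of the nearest start was often not the same as being upstream of the gene. In 668 of 1243 regions (53.7%, 51.0 to 56.5%) the centre lay upstream of every coding start of the gene. In 480 (38.6%, 35.9 to 41.4%) the gene had another coding start within 1 kb on the 5′ side of the centre, so that the region lay between starts of the same gene. In the other 95 (7.64%) such a start was more than 1 kb away. Of the 10 regions of highest fold, the first 6 (Cwc22, Hmgcs1, Ogdh, Ypel5, Map4 and Rnpc3) lay between starts, with the 5′ start 54.0 bp from the centre at Hmgcs1 and 469.0 bp at Ypel5, and the last 4 lay upstream of every coding start. The highest fold among regions upstream of every coding start was thus 9.21, at Larp1b. The median folds of the kinds were close, 3.93 upstream of every start and 4.03 between starts within 1 kb. Regions between starts covered the nearest one in 91.0% (88.2 to 93.3%) of cases, against 70.8% (67.2 to 74.1%) for regions upstream of every start. They were also centred nearer to it, at a median of -55.5 bp against -116.25 bp. Cover falls with distance, so that this difference is partly set by the split itself. The annotation does not say which start was used in these cells.

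CpG density around the start differed between the upstream and the downstream regions. The rule did not use CpG, but it split the sets by side, and most regions of both sets lay on CpG-rich DNA. The CpG differences between flanks given below are therefore partly set by the split itself. In the 500 bp on either side of the start, the starts of upstream regions averaged 8.68 CpG per 100 bp upstream and 8.83 downstream. The starts of downstream regions averaged 5.99 and 9.50. The outermost starts of 14718 genes with no region averaged 2.68 and 4.20. More CpG upstream than downstream of the start was found for 47.2% (44.5 to 50.0%) of upstream regions, 40.3% (36.7 to 43.9%) of divergent regions and 13.8% (12.7 to 15.0%) of downstream regions. Both sets had their highest density in the 50 bp just before the start, with 11.9 and 11.1 CpG per 100 bp.

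**Figure D3:**
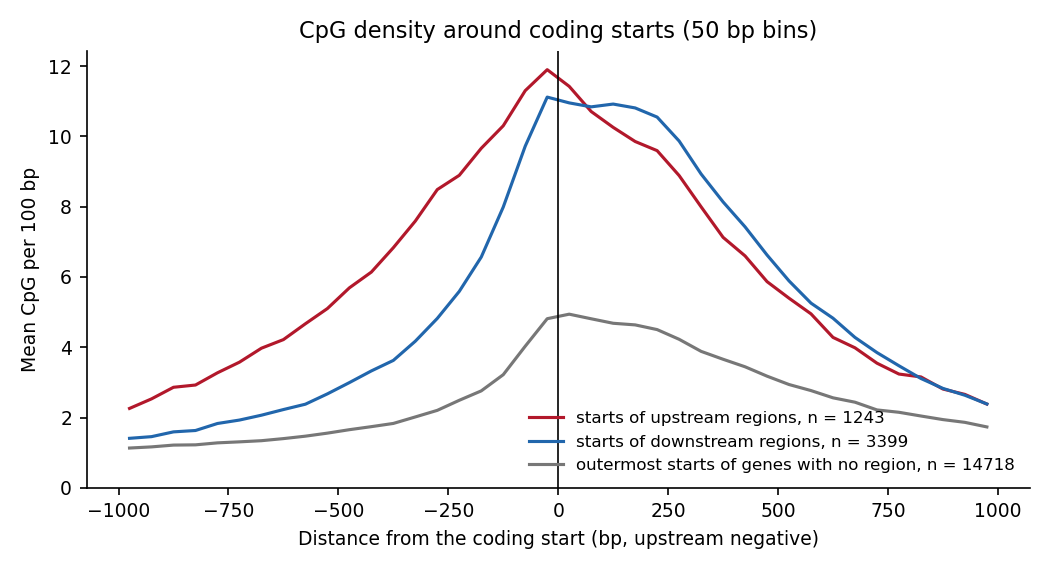
Mean CpG per 100 bp in 50 bp bins around coding starts, for the starts of upstream regions (red, n = 1243), the starts of downstream regions (blue, n = 3399) and the outermost starts of genes with no region (grey, n = 14718). The red curve is near symmetrical about the start, the blue curve is lower on the upstream side, and both are above the grey curve throughout.

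The arrangement of starts moved with this measure. Among regions between starts of a gene within 1 kb, 65.2% (60.8 to 69.3%) had more CpG on the upstream side, where the other start lies. Among regions upstream of every coding start, the share was 34.3% (30.8 to 38.0%). This was still above the 7.0% (5.82 to 8.39%) of downstream regions at outermost starts and above genes with no region, with 24.9% (24.2 to 25.6%) over all and 18.8% (17.8 to 19.9%) where GC content around the start was at least 60%. Over all upstream regions, with or without other starts, the share was 36.6% for those centred within 50 bp of the start. It was 58.6% for those beyond 500 bp. With a share of 34.3%, most regions upstream of every coding start did not have more CpG on that side. Their starts had a median of 8.0 CpG per 100 bp upstream and 9.8 downstream.

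**Figure D4:**
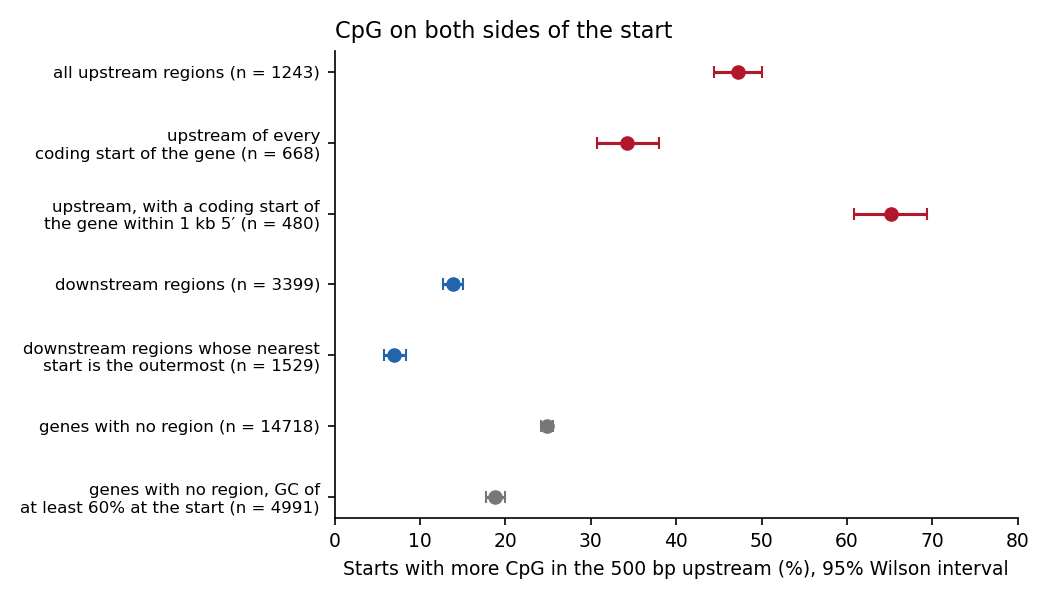
Percentage of coding starts with more CpG in the 500 bp upstream than in the 500 bp downstream, with 95% Wilson intervals. Upstream regions (red) lie above downstream regions (blue) and genes with no region (grey), also when only regions upstream of every coding start (34.3%) are set against downstream regions at outermost starts (7.0%).

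The DNA under the regions themselves was GC-rich on either side. In 300 bp around the centre, the median GC content of upstream regions was 70.0% and 1189 of 1243 (95.7%) had at least 60%. The observed over expected CpG ratio had a median of 0.876. With a ratio of at least 0.6 and GC of at least 50%, 94.5% (93.1 to 95.7%) of upstream and 95.7% of downstream windows counted as CpG-rich. At the matching place 88 bp before the outermost start, 44.7% of 20722 coding genes and 30.2% of genes with no region were CpG-rich. Only 2 upstream windows were more than 50% repeat-masked.

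Of 10 promoter motifs searched on both strands, the GC box (GGGCGG), bound by SP and KLF factors, was found in 80.5% (78.2 to 82.6%) of upstream windows. It was found in 44.9% of windows at all coding starts, but in 80.8% (79.5 to 82.0%) of those at starts with no region and a GC content of at least 60%. The TATA box (TATAAA) was found in 2.25% (1.56 to 3.24%) of upstream windows, against 12.3% at all starts and 4.06% (3.49 to 4.73%) at the GC-rich starts without a region. The NRF1 core (GCGCATGC) was found in 5.87% (4.70 to 7.32%), against 3.50% at all starts and 3.55% (3.02 to 4.18%) at GC-rich ones. The ETS core (CCGGAA), bound by a large family of activators, was found in 25.4% (23.1 to 27.9%), against 18.3% and 20.1% (18.9 to 21.4%). The MYB core (TAACNG), which fits the meiotic regulator A-MYB among others, was found in 15.0% (13.1 to 17.1%), against 21.6% and 11.6% (10.6 to 12.6%).

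To compare the sides at the same place, windows 88 bp before the nearest start were read for both sets. This offset is the median distance of the upstream regions. The starts of upstream regions held the GC box more often (82.9%, 80.8 to 84.9%) than those of downstream regions (75.5%, 74.0 to 76.9%). They held the TATA box less often (2.25% against 5.38%, 4.67 to 6.19%), as well as the CCAAT box of NF-Y (32.7%, 30.2 to 35.4%, against 37.2%, 35.5 to 38.8%), the ETS core (26.0%, 23.6 to 28.5%, against 31.0%, 29.4 to 32.6%) and the YY1 core (AAGATGGC; 4.10%, 3.13 to 5.35%, against 7.18%, 6.36 to 8.10%). The intervals of the TATA box, ETS core, YY1 core and GC box lie apart, while those of the CCAAT box only just do. In windows around the centres of the regions themselves, which lie at different places, the direction turned for the CCAAT box (30.7% upstream, 15.9% downstream) and the TATA box (2.25% and 1.21%). It also turned for the ETS core (25.4% and 24.5%). Of these 3, the intervals lie apart for the CCAAT box and overlap for the TATA box and the ETS core. At the common place, for the NRF1 core, the E-box (CACGTG), the CRE (TGACGTCA), the MYB core and the RFX half-site (GTTGCNATG) the intervals overlap or touch. Around the centres, all of these but the RFX half-site were more frequent upstream, with intervals apart. The shares were 5.87% and 2.88% for the NRF1 core, 10.5% and 6.12% for the E-box, 2.65% and 1.24% for the CRE, and 15.0% and 11.5% for the MYB core. The sets also differed in CpG on the upstream side, and the part of base composition in these shares was not tested. Many upstream regions lay between starts of a gene, and the motif shares were not read for regions upstream of every coding start alone.

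A transcript start of a noncoding gene on the opposite strand lay within 1 kb of the nearest coding start in 217 upstream regions (17.5%, 15.4 to 19.7%) and in 15.6% (14.4 to 16.8%) of downstream regions. Around the outermost start of genes with no region the share was 6.64% (6.25 to 7.06%). That set is unlike the others, as 30.2% of its windows were CpG-rich against 94.5% of upstream ones, and divergent promoters were not left out of it. A share at its GC-rich starts alone was not computed for this measure. 9930021J03Rik was one of the 217. The intervals of the upstream and downstream regions overlap. Genes made of 1 exon were rare among the genes with an upstream region (16 of 1235, 1.30%, 0.799 to 2.09%), the downstream set (2.25%, 1.80 to 2.81%) and the divergent set (3.66%), compared with 7.03% of genes with no region. None of 1128 olfactory receptor genes had any region, and the share of 1-exon genes without this class was not computed.

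The 1243 regions belonged to 1235 genes, 5.94% of the 20807 autosomal protein-coding genes (5.62 to 6.26%). Of 4576 genes with a region at a single coding start, 27.0% had it upstream. Any region within 1 kb of a coding start was found for 6004 genes, or 28.9%. The genes with a pair of upstream regions numbered 8, namely Arrdc3, Dyrk1a, Fbxl19, Kansl1, Ncoa2, Ppp2r3d, Scrt1 and Zeb1. Among these are the kinase gene Dyrk1a, the chromatin subunit gene Kansl1 and the transcriptional repressor gene Zeb1. A further 36 genes had both an upstream and a downstream region, with median folds of 3.72 and 3.86, and the upstream one was higher in 20 and the downstream one in 13. The widest gaps ran both ways, with 9.06 upstream and 3.41 downstream at 9930021J03Rik and 2.86 upstream and 9.77 downstream at Zfp513.

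Among 30 gene classes, 4 had an upstream region more often than all genes, judged by an interval that lies above 5.94%. Of 13 genes for H3.3 and for histone chaperones, a list that also holds the CAF-1 subunits, 4 had one (30.8%, 12.7 to 57.6%). These were Ubn2, a subunit of the HIRA complex (fold 5.09), H3f3a, which encodes H3.3 itself (4.15), Daxx (3.59) and Chaf1b, a subunit of the replication-coupled chaperone CAF-1 that carries canonical H3 (2.91). Of 13 glycolysis genes, 3 had one, namely Eno1 (7.55), Pkm (2.91) and Aldoa (2.90). Of 34 ubiquitin-conjugating enzymes, 5 had one (14.7%, 6.45 to 30.1%), among them Ube2b (4.22), whose product is needed for spermatogenesis. Of 79 cytosolic ribosomal protein genes, 9 had one (11.4%, 6.11 to 20.3%), led by Rplp2 (7.28), Rpl37 (6.78), Rpl11 (6.62) and Rps12 (5.73). With a -log10 q of at least 3, the background was 4.00%. The ribosomal protein genes (8 of 79) and the H3.3 and chaperone genes (2 of 13) stayed above it. The intervals of the glycolysis genes (1 of 13) and ubiquitin-conjugating enzymes (3 of 34) then included it.

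Many of the upstream regions of these classes lay between starts. In 8 of the 9 ribosomal protein genes, all 3 glycolysis genes, 3 of the 5 ubiquitin-conjugating enzyme genes and 2 of the 4 H3.3 and chaperone genes, another coding start of the gene lay within 1 kb on the 5′ side. With regions upstream of every coding start alone, 3.21% of all genes had one and 0 of the 30 classes lay above that background. The share of genes with a region on either side of the start was another matter. Of the 79 ribosomal protein genes, 49 (62.0%) had some region within 1 kb of a coding start, against 28.9% of all genes, and of the 43 with one at a single coding start 20.9% had it upstream, against 27.0% of all such genes. Of the ubiquitin-conjugating enzyme genes with one at a single coding start, 5 of 20 had it upstream. In the smaller classes these were 4 of 7 H3.3 and chaperone genes and 3 of 5 glycolysis genes. Some region near a coding start was found for 61.8% of the ubiquitin-conjugating enzyme genes, 84.6% of the H3.3 and chaperone genes and 46.2% of the glycolysis genes.

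Other classes were nearly empty. No upstream region was found for 1128 olfactory receptor genes (upper limit of the interval 0.339%), 327 vomeronasal receptor genes (1.16%) or 67 clustered histone genes (5.42%), and 1 of 110 keratin genes had one (Krt10, fold 6.21). The interval of these 4 classes lay below 5.94%. With a -log10 q of at least 3, or with regions upstream of every coding start, those of the clustered histones and keratins included the background, and only both receptor classes stayed below it. Clustered histone genes nevertheless had some region near a start in 15 of 67 (22.4%). The markers of Sertoli cells (0 of 18) and Leydig cells (0 of 12) had no upstream region, but lists this short cannot show a share below 5.94%. Some region near a coding start was found for 1 of 18 Sertoli and 0 of 12 Leydig markers. The upper limits of these intervals, 25.8% and 24.2%, lay below the 28.9% of all genes.

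The intervals of the germ cell lists included the background. Of 50 genes for the meiotic chromosome axis, recombination and its regulators, 3 had an upstream region (6.0%, 2.06 to 16.2%). They were Mybl1, which encodes A-MYB, the master regulator of pachytene genes (fold 5.57, 1189 bp), Ankrd31, which acts in break formation (3.89), and the crossover helicase gene Hfm1 (3.76). Of 42 spermiogenesis genes, Meig1 (3.87) and Spata18 (3.62) had one. Of 27 genes of the piRNA pathway and germ granule, Tex15 (4.90) and Tdrd3 (3.78) had one. Of 21 spermatogonial genes, Dazl (4.02), Dmrtb1 (3.88) and Zbtb16 (2.91) had one, all 3 between starts. Any region near a coding start was found for 25 of the 50 meiotic genes (50.0%) and 13 of the 27 piRNA genes (48.1%), against 28.9% of all genes, and for 7 of 42 spermiogenesis genes (16.7%).

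Of 29 BAF subunit genes, 4 had an upstream region (13.8%, 5.50 to 30.6%), an interval that includes the 5.94% of all genes. They were those of Actb (fold 6.02), Actl6a (5.39), Smarcd3 (3.11) and Arid1a itself. The region upstream of Arid1a was 575 bp wide, lay on chr4:133756844-133757418 and was centred 362.0 bp before the start with a fold of 2.86 and a -log10 q of 1.85, among the weakest of the list. It did not reach the start. A second region of Arid1a, with a fold of 3.42, lay 808.5 bp downstream of another coding start of the gene.

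The largest classes were near the background. Of 385 Zfp zinc finger genes, 22 had an upstream region (5.71%, 3.8 to 8.50%), the strongest at Zfp667 (8.17), Zfp131 (8.09), Zfp41 (6.62) and Zfp768 (6.21). Of 358 solute carrier genes, 22 had one (6.15%, 4.09 to 9.13%), led by the mitochondrial iron carrier gene Slc25a28 (6.53) and Slc35b3 (6.40). Of 91 cilium and flagellum genes, 5 had one, with folds of 2.95 to 4.46. DEAD/DEAH box helicases (4 of 51, led by Ddx50 with 6.47), translation initiation factors (3 of 52), mitochondrial ribosomal proteins (3 of 78) and 2 of 37 aminoacyl-tRNA synthetase genes also had intervals that include the background.

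**Figure D5:**
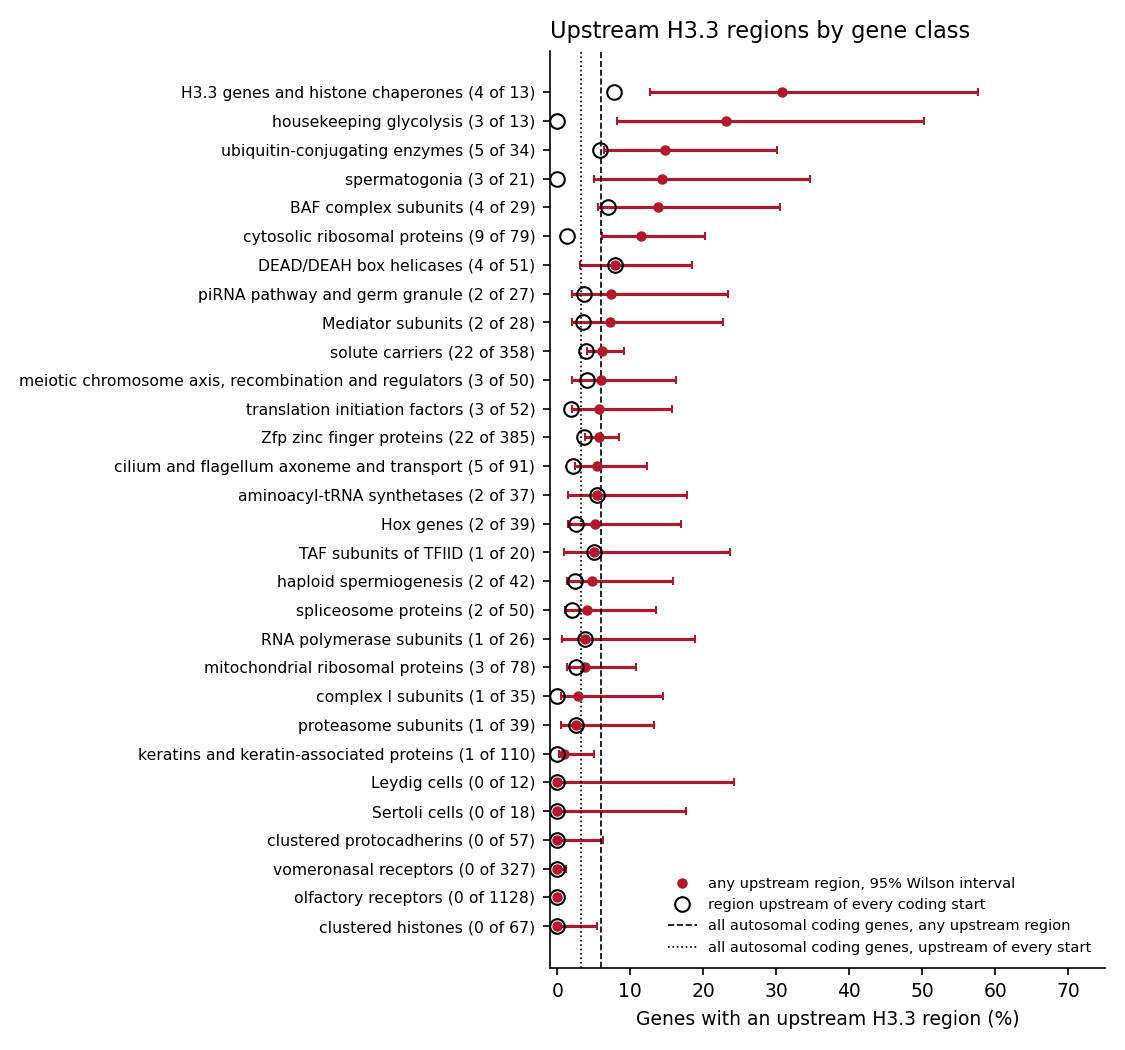
Percentage of genes of each class with an upstream H3.3 region (red, with 95% Wilson intervals) and with a region upstream of every coding start of the gene (open circles), beside the shares of all autosomal coding genes (dashed line, 5.94%, and dotted line, 3.21%). The ribosomal protein circle lies left of the dotted line, and only DEAD/DEAH box helicases, BAF subunits and H3.3 genes and histone chaperones have circles to the right of the dashed line.

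The regions were spread over all 19 autosomes, from 36 on chromosome 16 to 100 on chromosome 11. As a share of the regions at single coding starts they ranged from 23.7% on chromosome 16 to 32.0% on chromosome 14. None of the 1243 regions overlapped a region of the Arid1a WT list, which held 4 autosomal regions in all and so allows little overlap. The absence of a WT region is the absence of a called peak and not a measured level.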

How the data were processed

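H3.3 was measured by CUT&RUN in pachytene spermatocytes of Arid1a cKO (3 libraries) and Arid1a WT mice (2 libraries). The other 12 of 17 libraries, made with ARID1A antibodies, were not analysed here. According to the methods, the authors trimmed reads with Trim Galore (version 0.6.2), mapped them with bowtie2 (mm10) and dropped PCR duplicates. They ran MACS2 in broad mode (version 2.1.2, broad cutoff of 0.05) against an IgG library of an earlier study, then overlapped the peaks of replicates. That IgG library came from pachytene-enriched cells of juvenile testes, whereas the H3.3 cells came from adults. The lists are labelled as relative to rabbit IgG, and the H3.3 antibody was a mouse monoclonal. All values of fold and q rest on this control. For each peak, the authors deposited a score (not used further), the fold enrichment (a ratio of pileup over background), a −log10 p (not used) and a −log10 q. A region of the list is often written as several rows with 1 peak name and the same fold, so rows sharing at least 1 bp were merged and the highest fold kept. Depth per library is not given in the sources used here, and each genotype is 1 combined list, so that no replicate error, leave-one-out or test of genotype could be had. No per-sample columns were left unmatched.

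Transcript starts were those of 58784 protein-coding transcripts of GENCODE M21. Where several starts were equally near (3 regions), 1 was taken by a fixed order. Sequence was read from GRCm38.p6, the primary assembly of mm10. GC content, CpG ratio and motifs were counted in 300 bp around the region's centre. Shares have 95% Wilson intervals. The merge, the classes and the intervals were tested on simulated data. Scripts used Python 3.11.15, pandas 2.3.3, numpy 2.4.6, scipy 1.17.1 and matplotlib 3.10.9.

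The set of regions, the gene classes and the motifs were chosen with earlier results of these data known. Genes are named by rule (the 10 highest in fold, 5 widest, 3 nearest, 3 farthest, up to 4 of each class described, Arid1a, and all on the germ cell lists). Results on some genes that the rule names are not reported here. The 8 genes with a pair of regions, those next to the limits, Ube2j1 and Zfp513 were named after their values were seen. The split by other starts of the gene, the windows at a common place and those at GC-rich starts were added after the data had been seen. Alternatives covered −log10 q, rows, transcripts, distance limit and windows.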

Additional observations from a re-analysis of the deposited data

How the results depend on the processing

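Of 66 alternative values computed for 14 results, 44 stayed the same within the interval of the share or within 1.5 times, 22 moved and 0 reversed. The median distance, width and fold, the GC content and the CpG ratio stayed within 1.5 times in every alternative run, but not all were constant. With a −log10 q of at least 5, the median fold was 5.47, the width 601 bp and the distance -73.25 bp. For regions upstream of every coding start the median distance was -116.25 bp. The numbers of motifs above and below all starts did not change. In 200 bp windows, however, the YY1 core took the place of the E-box among the motifs above all starts. The number of regions was 350 with a −log10 q of at least 5, 2363 counted as rows and 668 when only those upstream of every coding start of the gene were kept. The start was covered by 83.7% with a −log10 q of at least 3, 89.7% with at least 5, 81.1% of regions with at least 2 rows, 81.4% with a limit of 500 bp and 70.8% of regions upstream of every coding start. Genes with an upstream region made up 4.00% with a −log10 q of at least 3, 1.68% with at least 5, 5.27% from regions with at least 2 rows, 7.0% with the starts of all transcripts of coding genes, 5.29% with basic transcripts and 3.21% from regions upstream of every coding start. Noncoding starts on the opposite strand within 500 bp of the nearest coding start were found for 13.3%. The gene classes above the background numbered 2 with a −log10 q of at least 3, 15 for any region within 1 kb and 0 for regions upstream of every coding start, and those below it 2, 7 and 2. More CpG upstream of the start was found for 34.3% of regions upstream of every coding start, and for 48.8% and 47.5% of all upstream regions with flanks of 250 and 1000 bp. Apart from the construction of each alternative (fewer regions, other starts), the cause was not tested. No paired analysis was possible because the replicates of a genotype were deposited as a single list, and no replicate could be left out. Library depth is unknown, so a gene without a listed region is not shown to lack H3.3.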
